A study of Mus musculus with 18 samples.

Results

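The collagen genes described here are the 44 protein-coding genes, of 54281 genes with a deposited value, whose symbol in the GENCODE mouse release M21 reads Col, a number, a and a number. By the build of their protein they fall into 11 fibrillar genes, 6 type IV genes of the basement membrane, 6 type VI genes, 9 FACIT genes (fibril-associated collagens with interrupted triple helices), 2 multiplexins, 3 genes of types VIII and X, 4 transmembrane collagens and 3 others (Col7a1, Col26a1 and Col28a1). RNA was sequenced from 18 mouse libraries, 2 in each of 9 groups. One group was the R1 embryonic stem cell line, wild type (mESC_WT). The other 8 groups were cerebral cortex of male C57BL/6J mice at the stages labelled E17.5, P4, A6w and A18w, each either wild type (WT) or Mcph1 knockout (Mcph1KO). All the stem cells were of 1 line, and the labels do not say whether the paired libraries came from separate animals or cultures, so p-values measure the spread between these libraries, which may be technical.

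Collagens are secreted or membrane-bound proteins whose chains wind into a triple helix. Fibrillar collagens form the fibres of connective tissue. Type IV collagen forms the sheet-like scaffold of basement membranes, which in the brain lie around blood vessels and under the meninges. In brain, collagens are made largely by fibroblasts of the meninges, cells of the vessel wall and the choroid plexus, while a few transmembrane and FACIT members are also made by neurons.

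The genes for pairs of type IV chains lie head to head, so that each pair shares its start region, and this arrangement is shown first because the values of the pairs are set side by side below. Col4a1 (chr8:11198423-11312826, minus strand) and Col4a2 (chr8:11312805-11449287, plus strand) overlap by 22 bases at their 5′ ends, in capitals in the first line below. Col4a4 (chr1:82448423-82586849, minus strand) and Col4a3 (chr1:82586921-82722059, plus strand) are separated by the 71 bases of the second line. The last lines give the 250 bases before the RefSeq start of Col3a1, the fibrillar gene that fell most from P4 to A6w, and of Col25a1, which rose over the same step. In these lines capitals mark motifs found on either strand. The searched letters were TATAAA for the first motif, CCAAT for the next and GGGCGG for the last. All lines are the plus strand of GRCm38.p6, from RefSeq promoter windows.
Col4a1/Col4a2 start region, chr8:11312801-11312830: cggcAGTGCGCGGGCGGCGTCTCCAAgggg
Col4a4/Col4a3 gap, chr1:82586850-82586920: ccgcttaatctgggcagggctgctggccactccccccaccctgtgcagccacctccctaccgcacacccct
Col3a1, chr1:45311288-45311537: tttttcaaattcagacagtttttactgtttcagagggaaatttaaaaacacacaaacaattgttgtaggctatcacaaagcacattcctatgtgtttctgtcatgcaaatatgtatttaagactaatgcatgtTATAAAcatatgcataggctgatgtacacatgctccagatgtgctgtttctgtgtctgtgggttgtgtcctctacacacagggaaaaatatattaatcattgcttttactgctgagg
Col25a1, chr3:130180595-130180844: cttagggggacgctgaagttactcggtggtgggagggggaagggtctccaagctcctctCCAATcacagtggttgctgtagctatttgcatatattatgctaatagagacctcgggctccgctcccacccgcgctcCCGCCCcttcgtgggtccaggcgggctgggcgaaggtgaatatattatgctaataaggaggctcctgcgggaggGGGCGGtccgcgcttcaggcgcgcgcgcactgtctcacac

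The Col3a1 stretch holds TATAAA once, and the Col25a1 stretch holds CCAAT and GGGCGG but no TATAAA. The Col25a1 stretch overlapped no exon of the annotation, but it lies inside the annotated gene, which starts earlier, at chr3:130131501 on the plus strand. The RefSeq windows, which run from 250 bases before to 50 bases after a start, matched 35 of the 44 collagen genes, with 38 windows. TATAAA or its reverse complement lay in 13.2% of the collagen windows and in 13.6% of all 32851 windows, and CCAAT in 34.2% against 37.4%. The letters GGGCGG or their reverse complement lay in 60.5% of the collagen windows, from 22 genes, and in 35.7% of all windows. Motifs were counted separately, and a match is a description of the letters alone.

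Total estimated counts ran from 23531045 to 32041849 per library. Mcph1 itself stood at 8.36 to 12.5 CPM (counts scaled to the library's TMM-adjusted total) in the WT cortex libraries and at 11.7 to 16.6 CPM in those labelled Mcph1KO, so its counts did not show the loss that the label names, and groups are called by their labels below. The summed level of 7 stem cell markers was 7030 and 6960 CPM in the stem cell libraries and 0.795 to 3.33 CPM in cortex. The summed level of 7 markers of cortical excitatory neurons was 11.8 and 2.89 CPM in stem cells and 1070 to 2730 CPM in cortex, and Neurod6 and Neurod2, transcription factors of these neurons, had no count in either stem cell library. Among the cortex libraries, replicate 1 of both A18w groups had 6 striatal markers summing to 1460 and 1150 CPM, against 295 and 441 CPM in the other A18w libraries. Choroid plexus markers ran from 6.25 to 974 CPM among the E17.5 libraries. In such tissue RNA, fewer cells of a type and less RNA per cell cannot be told apart.

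Collagen RNA was a small part of every library, and its makeup differed by stage. The 44 genes held 0.136% to 0.212% of all counts at E17.5, 0.0919% to 0.132% at P4, 0.0284% to 0.0347% at A6w and 0.0188% to 0.0259% at A18w. In the stem cells they held 0.0536% and 0.0203%. Type IV genes made up 34.3% to 44.3% of the collagen counts at E17.5, and fibrillar genes 34.0% to 44.0%. By A18w these shares were 19.8% to 26.9% for type IV and 17.3% to 22.0% for fibrillar genes. The 4 transmembrane genes went from 1.89% to 2.24% of collagen counts at E17.5 to 20.7% to 24.9% at A18w, while in the stem cells the multiplexins alone held 60.0% and 70.3%. Col25a1 alone held 18.1% to 23.1% of collagen counts at A18w. The transmembrane sum was 24.4 to 41.2 CPM over the E17.5 libraries and 53.1 to 58.5 CPM over those of A18w. All 44 genes together summed to 1230 to 1830 CPM at E17.5 and 213 to 277 CPM at A18w, so the shares also reflect the lower total.

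**Figure D1:**
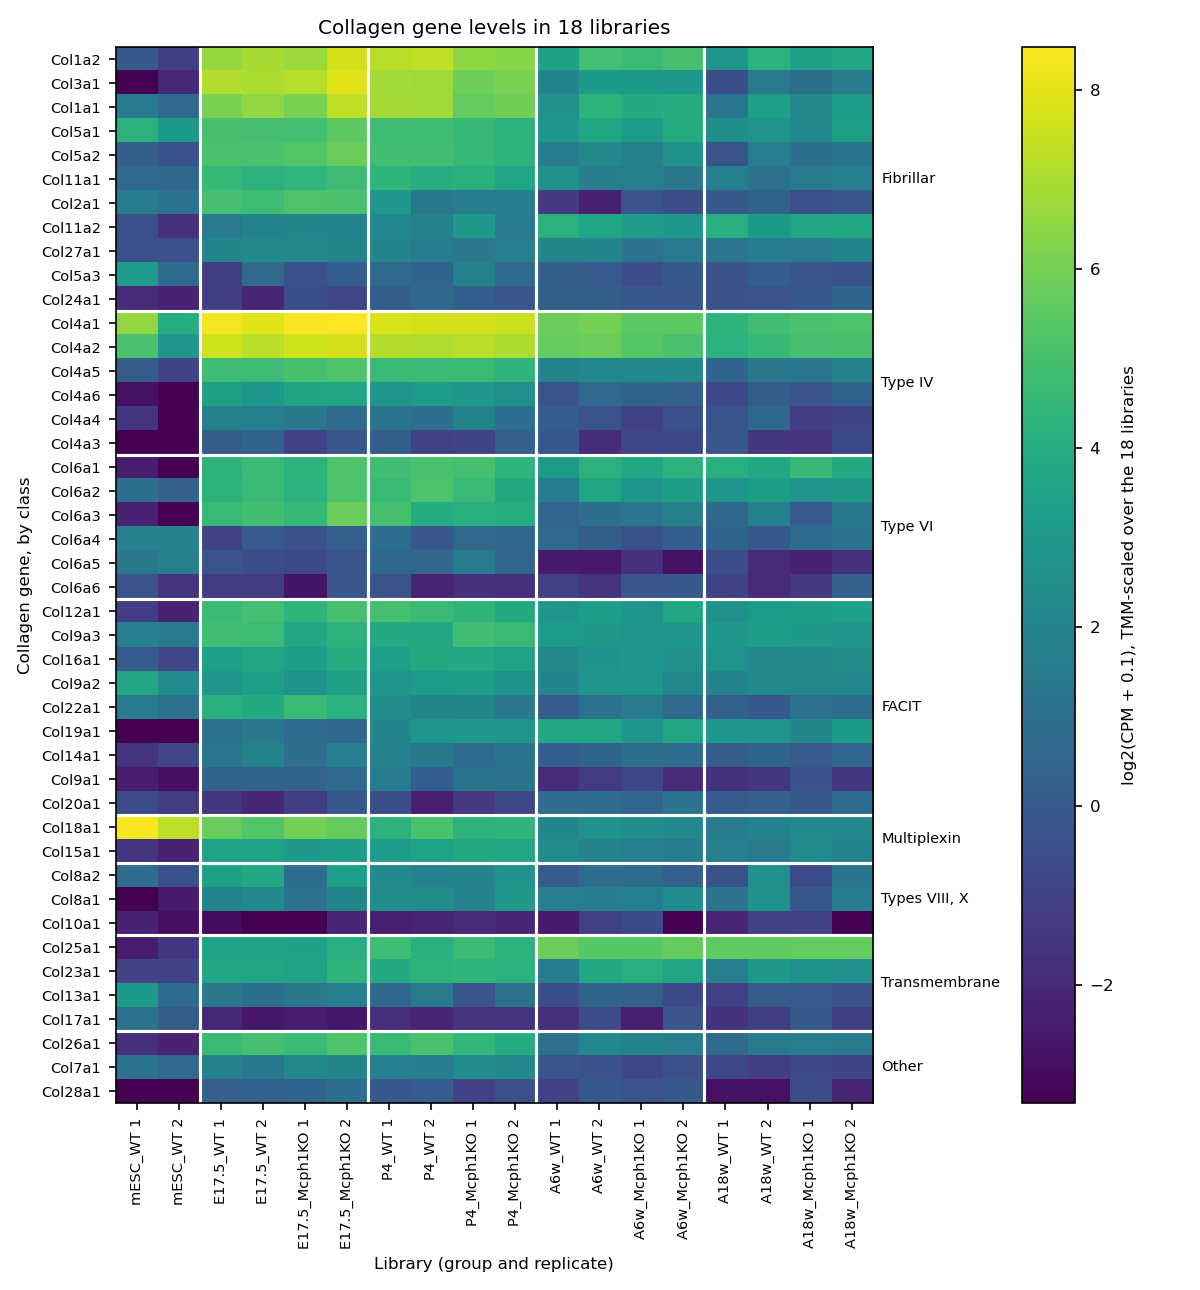
Level of each of the 44 collagen genes (vertical axis, grouped by class) in each of the 18 libraries (horizontal axis, by group and replicate), as log2 of CPM plus 0.1. Col4a1 and Col4a2 are bright at E17.5 and P4, Col18a1 is brightest in the stem cell libraries, and Col25a1 is brighter at A6w and A18w than at E17.5.

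To rank the genes within a stage, counts were divided by the length of the gene's exons, which was not done for the shares above or for CPM. On that scale (counts per kilobase, scaled to the same sum in every library), the highest medians at E17.5 were 140 for Col4a1 (range over 4 libraries 112 to 177), 89.6 for Col4a2 (72.8 to 107), 73.8 for Col3a1 (71.7 to 148) and 64.2 for Col1a2 (53.8 to 129). Col4a1 and Col4a2 did not overlap at E17.5, whereas Col4a2, Col3a1 and Col1a2 overlapped with each other. At A18w the order differed, with Col25a1 highest at 16.5 (15.7 to 17.7), followed by Col4a1 at 11 (6.74 to 12.9), Col4a2 at 10 (6.32 to 12.3) and Col6a1 at 9.24 (7.62 to 12.9). Col25a1 lay above every library of the next 3 genes at A18w, and those 3 overlapped. In the stem cells Col18a1 led at 71.7 (40.4 and 103 in the pair of libraries), followed by Col4a1 at 17.6 (4.23 and 31.1). At the low end at E17.5 were Col10a1 (0.0137), Col17a1 (0.0443) and Col6a6 (0.104), and Col10a1 had 74 counts in all 18 libraries together.

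From E17.5 to P4, around birth, most collagen genes did not pass the test and those that did went both ways. With edgeR's quasi-likelihood test, averaging the 2 genotype labels and calling an adjusted p under 0.05, 10 of the 44 genes were called, against 36.8% of the 19199 genes tested. The 4 that rose were Col19a1, Col24a1, Col6a5 and Col25a1 (18.9% of all genes rose), and the 6 that fell were Col2a1, Col22a1, Col18a1, Col3a1, Col4a1 and Col4a2 (17.9% of all genes fell). The median log2 fold change of the collagen genes was -0.13, beside 0.03 for all genes. Within WT alone 6 collagen genes were called, 5 of them among the 10, and within the libraries labelled Mcph1KO 7, of which 6 were among the 10. The shares above are for the labels averaged, and those within each label are not given here. Values per library are given below in CPM in the order WT replicate 1, WT replicate 2, Mcph1KO replicate 1 and Mcph1KO replicate 2, and each stage comparison sets 4 libraries against 4.

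The largest fall at birth was that of Col2a1, the chain of type II collagen best known from cartilage. Col2a1 stood at 32.1, 28.7, 36.1 and 34.9 CPM at E17.5 and at 8.09, 2.64, 3.12 and 3.16 CPM at P4. Every P4 library lay below every E17.5 library, and the log2 fold change was -3.00 ± 0.29 (SE; edgeR adjusted p = 3.41e-05). The 5 cartilage markers (Acan, Matn1, Matn3, Cnmd and Comp) summed to 0.967 to 2.44 CPM at E17.5 and 2.54 to 3.96 CPM at P4. Their part in the fall of Col2a1 was not tested. Col22a1, a FACIT gene, stood at 17.9, 15.2, 24.2 and 18.7 CPM at E17.5 and at 5.68, 4.02, 4.36 and 2.61 CPM at P4. These libraries did not overlap either (log2 fold change -2.20 ± 0.26, edgeR adjusted p = 8.56e-05). Col18a1, which encodes the basement membrane multiplexin that yields endostatin, went from 53.5, 39.4, 61.2 and 51.7 CPM to 19.9, 34.3, 19.8 and 21.3 CPM. It fell by 1.12 ± 0.19 on the log2 scale (edgeR adjusted p = 0.000726), again with no overlap.

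Col3a1, whose protein is a ligand of the receptor Adgrg1 at the surface of the developing cortex, stood at 140, 131, 141 and 254 CPM at E17.5 and at 120, 110, 61.1 and 71.4 CPM at P4. The libraries did not overlap and the log2 fold change was -0.91 ± 0.29 (edgeR adjusted p = 0.0282), but within WT alone it was -0.24 (adjusted p = 0.726), and the call was lost without any 1 of 6 libraries. The main basement membrane chains were also called. Col4a1 went from 308, 244, 326 and 363 CPM to 226, 214, 214 and 189 CPM, with no overlap and a log2 fold change of -0.55 ± 0.12 (edgeR adjusted p = 0.0043). Col4a2 went from 197, 154, 197 and 213 CPM to 145, 137, 161 and 133 CPM, with overlap in 1 P4 library (log2 fold change -0.40 ± 0.12, edgeR adjusted p = 0.0193). Within WT alone neither passed, Col4a1 at -0.33 (edgeR adjusted p = 0.212) and Col4a2 at -0.32 (adjusted p = 0.203). Vessel and meningeal markers were measured at the same step, where 18.9% of all genes rose and 17.9% fell. Pericyte markers summed to 290 to 377 CPM at E17.5 and 233 to 355 CPM at P4, with 1 of 8 higher and 4 lower, among them Pdgfrb (log2 fold change -0.58 ± 0.12, edgeR adjusted p = 0.00231) and Kcnj8 (-1.04 ± 0.21, adjusted p = 0.00222). Endothelial markers summed to 301 to 353 CPM and then 227 to 347 CPM, with 1 of 8 higher and 3 lower, among them Pecam1 (-0.41 ± 0.12, edgeR adjusted p = 0.016). Of the meningeal markers 1 of 12 fell, Lum (-0.83 ± 0.28, edgeR adjusted p = 0.0328), and all 5 red blood cell markers fell. Their part in the collagen falls was not tested. The type I chains Col1a1 and Col1a2 were at log2 fold changes of -0.23 ± 0.40 (edgeR adjusted p = 0.686) and -0.17 ± 0.32 (adjusted p = 0.703).

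Of the genes that rose at birth, Col25a1 had the highest level and the others were under 3 CPM at E17.5. Col19a1, a FACIT gene made by some interneurons in brain, stood at 1.99, 2.51, 1.65 and 1.5 CPM at E17.5 and at 4.27, 7.28, 8.01 and 7.12 CPM at P4. It did not overlap (log2 fold change 1.81 ± 0.27, edgeR adjusted p = 0.000324). Col25a1, a neuronal transmembrane collagen whose shed part was found in amyloid plaques, went from 11, 11.6, 10.7 and 17 CPM to 29.1, 18.2, 27.7 and 20 CPM. It also did not overlap (log2 fold change 0.93 ± 0.19, edgeR adjusted p = 0.00211). Col24a1, a minor fibrillar gene, rose from 0.141 to 0.619 CPM over the E17.5 libraries to 0.799 to 1.51 CPM at P4 (log2 fold change 1.56 ± 0.36, edgeR adjusted p = 0.00467). Col6a5, a type VI chain, rose from 0.530 to 0.766 CPM to 1.38 to 3.02 CPM (log2 fold change 1.45 ± 0.45, edgeR adjusted p = 0.0231), a call lost without any 1 of 5 libraries.

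**Figure D2:**
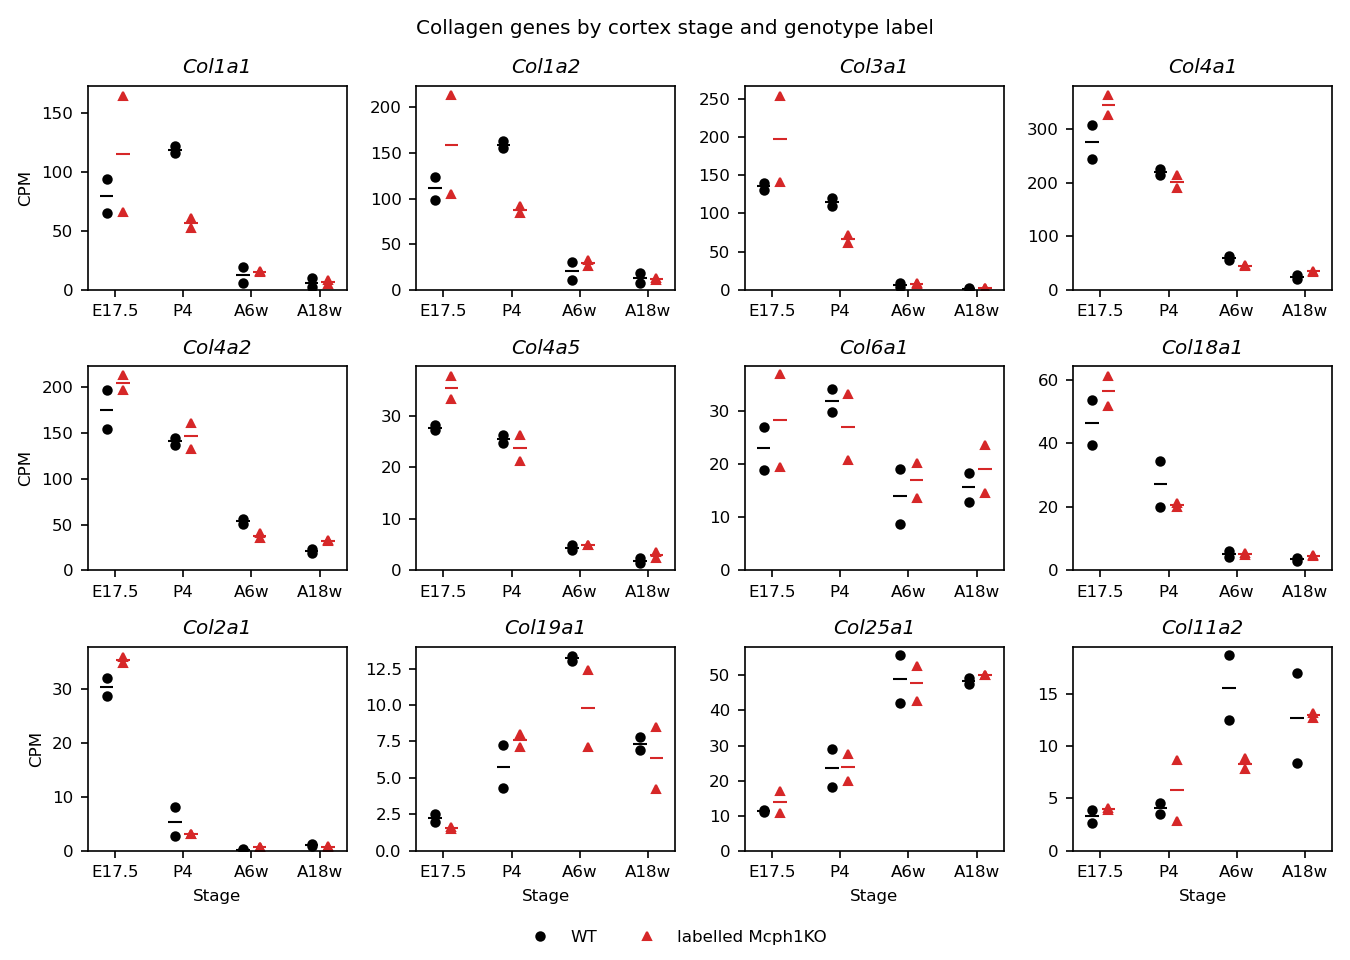
CPM (vertical axis, from 0) of 12 collagen genes at the 4 cortex stages (horizontal axis), with circles for WT libraries, triangles for libraries labelled Mcph1KO and bars for the mean of each pair. Col4a1 lies between 189 and 363 CPM at E17.5 and P4 and between 20.2 and 63.9 CPM later, whereas Col25a1 lies at 10.7 to 17 CPM at E17.5 and at 42.1 to 55.9 CPM from A6w on.

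From P4 to A6w, collagen genes of nearly every class fell, and 4 rose. Of the 44 genes, 28 fell and 4 rose, 32 in all against 55.1% of all genes tested (27.8% of all genes fell and 27.3% rose). The median log2 fold change over the 44 genes was -1.25, beside -0.06 for all genes. All 4 libraries of A6w lay below all 4 of P4 for 26 collagen genes and above them for 2, beside 25.6% and 25.8% of all genes (51.4% in either direction). Within WT alone 30 collagen genes were called and within the libraries labelled Mcph1KO 23, and all of these were among the 32. The shares of all genes called within each label are not given here, so these counts are read without a baseline.

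Of the 11 fibrillar genes 8 fell and 1 rose, with a median log2 fold change of -2.25. Col3a1 went from 120, 110, 61.1 and 71.4 CPM at P4 to 3.69, 8.62, 8.43 and 7.81 CPM at A6w. Its libraries were far apart, and the log2 fold change was -3.62 ± 0.33 (edgeR adjusted p = 1.2e-06). Col1a1 and Col1a2 encode the chains of type I collagen, the main fibre of connective tissue. Col1a1 went from 122, 116, 52.3 and 61.4 CPM to 6.09, 19.5, 14.9 and 15.7 CPM, and Col1a2 from 155, 163, 91.3 and 84.4 CPM to 10.4, 30.4, 26.4 and 33.2 CPM. Neither overlapped, with log2 fold changes of -2.55 ± 0.43 for Col1a1 (edgeR adjusted p = 0.00023) and -2.26 ± 0.34 for Col1a2 (adjusted p = 8.84e-05). In both genes WT replicate 1 was the lowest A6w library.

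Col2a1 fell again, from 2.64 to 8.09 CPM at P4 to 0.284, 0.109, 0.769 and 0.598 CPM at A6w (log2 fold change -3.47 ± 0.36, edgeR adjusted p = 3.6e-06). The chains of type V collagen, which set the width of type I fibres, fell by 1.15 ± 0.27 for Col5a1 (edgeR adjusted p = 0.00265) and by 2.56 ± 0.32 for Col5a2 (adjusted p = 1.82e-05) on the log2 scale. Col11a1 fell by 2.25 ± 0.25 (edgeR adjusted p = 6.08e-06). Its partner chain in type XI collagen, Col11a2, was the fibrillar gene that rose, from 4.60, 3.50, 8.71 and 2.87 CPM to 18.7, 12.5, 8.88 and 7.77 CPM. Col11a2 overlapped in 1 library at each stage, and its log2 fold change was 1.23 ± 0.32 (edgeR adjusted p = 0.00513). It was 0.52 within the libraries labelled Mcph1KO (adjusted p = 0.374). Col24a1 (-0.21 ± 0.34, edgeR adjusted p = 0.613) and Col27a1 (-0.06 ± 0.21, adjusted p = 0.834) did not pass.

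Of the 6 type IV genes 5 fell, with a median log2 fold change of -1.96. Col4a1 went from 226, 214, 214 and 189 CPM to 54.9, 63.9, 44.3 and 46.1 CPM, and Col4a2 from 145, 137, 161 and 133 CPM to 50.5, 56.1, 40.2 and 34.9 CPM. The stages were well apart, at log2 fold changes of -2.02 ± 0.13 for Col4a1 (edgeR adjusted p = 6.07e-08) and -1.69 ± 0.12 for Col4a2 (adjusted p = 1.72e-07). Col4a5, a chain of other type IV networks, went from 26.2, 24.8, 26.2 and 21.3 CPM to 3.90, 4.87, 4.93 and 4.91 CPM (log2 fold change -2.40 ± 0.19, edgeR adjusted p = 3.12e-07). Col4a6 fell by 2.69 ± 0.28 (edgeR adjusted p = 3.56e-06) and Col4a4 by 1.89 ± 0.35 (adjusted p = 0.000458). Col4a3, at 0.412 to 1.16 CPM at P4 and 0.182 to 0.852 CPM at A6w, did not pass (log2 fold change -0.63 ± 0.57, edgeR adjusted p = 0.365).

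Type VI collagen forms beaded microfibrils, and 4 of its 6 genes fell. Col6a1 went from 29.7, 34.0, 33.2 and 20.7 CPM to 8.73, 19.1, 13.6 and 20.2 CPM, with the stages separated by a narrow margin (log2 fold change -0.93 ± 0.29, edgeR adjusted p = 0.0157). Col6a2 went from 26.2, 35.5, 25.4 and 14.7 CPM to 2.96, 12, 7.34 and 9.95 CPM (log2 fold change -1.63 ± 0.36, edgeR adjusted p = 0.00193). Col6a3 went from 32.7, 15.7, 18.4 and 16.6 CPM to 1.34, 1.93, 2.38 and 3.41 CPM (log2 fold change -3.24 ± 0.40, edgeR adjusted p = 1.56e-05). Of these chains of the classic type VI trimer, Col6a3 had the lowest fold change, a difference that was not tested. Col6a5 lost its P4 level and stood at 0.0812, 0.0728, 0.210 and 0.0427 CPM at A6w (log2 fold change -4.11 ± 0.55, edgeR adjusted p = 3.44e-05), the largest fall of all 44 genes. That estimate rests on 2, 2, 6 and 1 counts in the A6w libraries, so its size and rank are imprecise.

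Among the FACIT genes, which sit on the surface of fibrils, 6 of 9 fell and 2 rose. Col12a1 went from 33.3, 26.5, 20.9 and 14.5 CPM to 6.98, 9.31, 7.55 and 13.5 CPM (log2 fold change -1.31 ± 0.23, edgeR adjusted p = 3e-04). Col9a3 went from 15.2, 14.1, 29.6 and 25.7 CPM to 8.81, 8.26, 7.10 and 7.90 CPM (log2 fold change -1.33 ± 0.15, edgeR adjusted p = 8.64e-06). Of its partner chains in type IX collagen, Col9a1 fell by 2.88 ± 0.46 (edgeR adjusted p = 0.000165) and Col9a2 was at -0.53 ± 0.27 (adjusted p = 0.107). The differences between chains were not tested. Col19a1 rose further, to 13.4, 13.0, 7.13 and 12.4 CPM, with overlap with P4 (log2 fold change 0.78 ± 0.25, edgeR adjusted p = 0.0196), and was at 0.37 within the libraries labelled Mcph1KO (adjusted p = 0.442). Col20a1 rose from 0.631, 0.103, 0.302 and 0.508 CPM to 1.83, 1.64, 1.33 and 2.18 CPM, with no overlap (log2 fold change 2.17 ± 0.51, edgeR adjusted p = 0.00266).

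Of the remaining classes, both multiplexins fell. Col18a1 stood at 4.10, 6.18, 5.46 and 4.74 CPM at A6w, below all P4 libraries (log2 fold change -2.20 ± 0.20, edgeR adjusted p = 1.25e-06), and Col15a1 fell by 1.62 ± 0.19 (adjusted p = 8.97e-06). Col26a1, which carries an EMI domain, went from 26.8, 33.7, 22.9 and 15.5 CPM to 1.99, 4.40, 3.95 and 3.20 CPM (log2 fold change -2.83 ± 0.27, edgeR adjusted p = 1.92e-06). Col7a1, the chain of anchoring fibrils, fell by 2.68 ± 0.24 (edgeR adjusted p = 1.21e-06). No transmembrane gene was called lower, though mean CPM went from 18.9 to 11.8 for Col23a1 and from 1.79 to 0.887 for Col13a1. The mean of Col17a1 went from 0.221 to 0.405 CPM. Col25a1 rose to 55.9, 42.1, 42.7 and 52.8 CPM, above every P4 library (log2 fold change 1.03 ± 0.18, edgeR adjusted p = 0.000397), and Col23a1, Col13a1 and Col17a1 did not pass (edgeR adjusted p = 0.123, 0.0732 and 0.258). Col23a1 was at 15.1, 19.6, 21.7 and 19.0 CPM at P4 and at 3.04, 14.1, 17.1 and 12.9 CPM at A6w, where WT replicate 1 stood apart as the lowest.

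The genes of types VIII and X and the weaker FACIT members complete the family at this step. Col8a1 was at 3.75 to 8.28 CPM at P4 and 3.09 to 5.38 CPM at A6w (log2 fold change -0.65 ± 0.42, edgeR adjusted p = 0.212), whereas its partner chain Col8a2 fell from 3.84 to 6.43 CPM to 0.934 to 1.82 CPM (-1.79 ± 0.64, adjusted p = 0.0307). Col16a1 fell by 1.06 ± 0.22 (edgeR adjusted p = 0.00127), Col22a1 by 1.18 ± 0.27 (adjusted p = 0.00219) and Col14a1 by 0.78 ± 0.28 (adjusted p = 0.0323) on the log2 scale. Col6a4, Col6a6, Col10a1 and Col28a1, all under 2 CPM in every P4 and A6w library, did not pass (edgeR adjusted p = 0.335, 0.435, 0.548 and 0.911). Col5a3 fell by 1.15 ± 0.45 (edgeR adjusted p = 0.0435), from 1.30 to 3.72 CPM to 0.595 to 1.10 CPM.

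**Figure D3:**
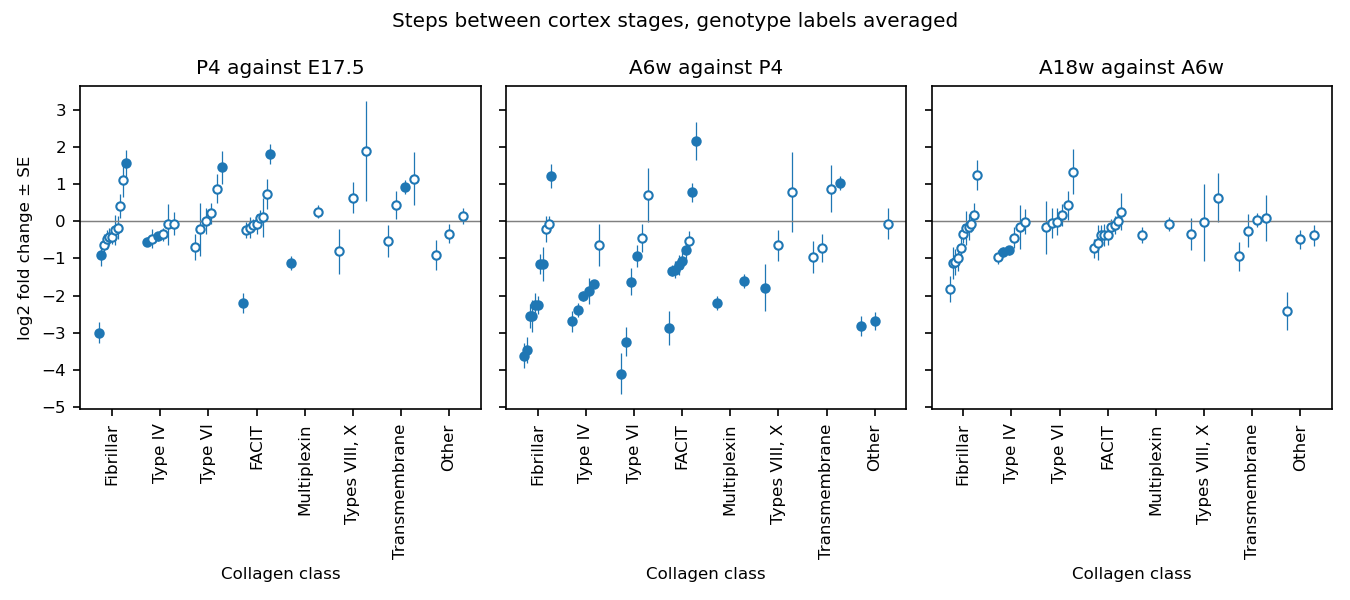
Log2 fold change with its standard error (vertical axis) of each of the 44 collagen genes by class (horizontal axis) for the 3 steps between cortex stages. Filled points passed an adjusted p under 0.05, namely 10 genes from E17.5 to P4, 32 from P4 to A6w and 2 from A6w to A18w.

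Marker lists of other cell types moved unequally over the step from P4 to A6w. Their counts stand beside 27.8% of all genes that fell and 27.3% that rose, 55.1% in either direction. Markers of meningeal fibroblasts summed to 145 to 291 CPM at P4 and 39.5 to 152 CPM at A6w, and 6 of 12 fell and 0 rose, among them Fbln1 (log2 fold change -2.12 ± 0.27, edgeR adjusted p = 2.49e-05) and Lum (-1.70 ± 0.29, adjusted p = 0.000267). Endothelial markers summed to 227 to 347 CPM and then 254 to 325 CPM (1 of 8 rose and 4 fell), and pericyte markers to 233 to 355 CPM and then 252 to 311 CPM (1 of 8 rose and 3 fell). None of the markers of these 3 lists was at 0 in every library of a cortex stage. Choroid plexus markers went from 5.87 to 778 CPM to 5.89 to 18.2 CPM, with 6 of 7 lower, and markers of thalamus and hypothalamus from 34.7 to 236 CPM to 12.2 to 20.2 CPM, with 6 of 6 lower. Cortical excitatory neuron markers summed to 1070 to 1640 CPM at P4 and 2390 to 2730 CPM at A6w, with 1 of 7 higher and 4 lower. Hippocampal markers (2 of 6 rose and 1 fell), striatal markers (0 and 2 of 6), red blood cell markers (5 and 0 of 5), bone markers (1 and 0 of 4) and cartilage markers (2 and 0 of 4) completed the lists. The part of these lists in the collagen changes was not tested. Without A6w WT replicate 1 and replicate 1 of both A18w groups, which had the lowest meningeal sums of their stages, 29 collagen genes were called from P4 to A6w (4 higher and 25 lower), in a check added after the data were seen. The share of all genes called in that smaller fit is not given here, so the count has no baseline.

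The other genes of collagen synthesis were taken from lists of the pathway. Of 19 genes for folding and modification of collagen chains, 11 fell and 3 rose from P4 to A6w, with a median log2 fold change of -0.58. Of all genes tested, 27.8% fell and 27.3% rose over that step, 55.1% in either direction. Serpinh1, the chaperone of procollagen, fell at both early steps, by 1.07 ± 0.16 from E17.5 to P4 (edgeR adjusted p = 0.00035) and by 1.90 ± 0.17 from P4 to A6w (adjusted p = 8.32e-07). It stood at 147, 123, 141 and 165 CPM at E17.5, at 79.8, 82.8, 54.7 and 61.0 CPM at P4 and at 15.9, 25.9, 16.1 and 16.3 CPM at A6w, with no overlap between neighbouring stages. Plod2, a lysyl hydroxylase, fell by 1.77 ± 0.21 from P4 to A6w (edgeR adjusted p = 1.13e-05).

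Of 13 genes for procollagen processing and cross-linking, 6 fell and 1 rose over that step, led by the lysyl oxidase genes Loxl2 (log2 fold change -2.99 ± 0.26, edgeR adjusted p = 7.48e-07) and Loxl1 (-2.31 ± 0.21, adjusted p = 1e-06). The list counts for this step stand beside 27.8% of all genes that fell and 27.3% that rose (55.1% in either direction). Of 17 other basement membrane genes 12 fell and 1 rose, with the linker proteins Nid1 at -2.37 ± 0.15 (edgeR adjusted p = 6.74e-08) and Nid2 at -3.22 ± 0.23 (adjusted p = 1.56e-07). Of 9 collagen receptors 4 fell and 0 rose, among them Adgrg1, the receptor for type III collagen (-1.45 ± 0.13, edgeR adjusted p = 8.72e-07). Of the 10 tested genes of collagen breakdown, from a list of 12, 6 fell and 2 rose, with the gelatinase Mmp2 at -2.40 ± 0.26 (edgeR adjusted p = 5.16e-06). From E17.5 to P4 the counts of genes that rose and fell were 2 and 1 for folding, 0 and 2 for processing, 2 and 1 for basement membrane, 0 and 5 for receptors and 3 and 2 for breakdown, beside 18.9% of all genes that rose and 17.9% that fell.

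From A6w to A18w collagen RNA was lower in sum, at 307 to 388 CPM over the A6w libraries and 213 to 277 CPM over those of A18w, which did not overlap (the sum was not tested). Of the 44 genes, 34 had a negative log2 fold change, with a median of -0.21 beside -0.01 for all genes, and 13 had an unadjusted p under 0.05, beside 8.89% of all genes. Col4a1 and Col4a2 passed edgeR's adjusted test, both lower, 2 of 44 against 0.135% (26 genes) of all genes tested and 0.0313% lower. Col4a1 went from 54.9, 63.9, 44.3 and 46.1 CPM to 20.2, 28.6, 34.0 and 35.1 CPM, and Col4a2 from 50.5, 56.1, 40.2 and 34.9 CPM to 18.5, 23.7, 32.1 and 32.6 CPM. Neither overlapped, and the log2 fold changes were -0.83 ± 0.13 (edgeR adjusted p = 0.0239) and -0.78 ± 0.12 (adjusted p = 0.0275). Within WT they were called as well, at -1.28 ± 0.18 (edgeR adjusted p = 0.0331) and -1.34 ± 0.17 (adjusted p = 0.0227), whereas within the libraries labelled Mcph1KO Col4a1 was at -0.39 and Col4a2 at -0.22 (edgeR adjusted p = 1 for each). Col4a5 and Col3a1 were also lower in all 4 A18w libraries than in all A6w libraries, 4 collagen genes in all beside 3.3% of all genes (2.95% higher and 6.26% in either direction), but their adjusted p from edgeR was 0.0931 and 0.0802.

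The fold changes of both genes moved little when 1 library was left out, from -0.97 to -0.72 for Col4a1 and from -0.87 to -0.69 for Col4a2, but the adjusted p often passed 0.05. Neither gene was called when any 1 of A6w WT replicate 2, A6w Mcph1KO replicate 1 or 2, A18w WT replicate 1 or A18w Mcph1KO replicate 1 was left out, and Col4a2 was also not called without A6w WT replicate 1 or A18w Mcph1KO replicate 2. The same held for both genes when both A18w libraries high in striatal markers were left out together, a check added after the data were seen (log2 fold change -0.71 for Col4a1 and -0.69 for Col4a2, edgeR adjusted p = 0.399 and 0.5). Meningeal markers summed to 36.8 and 55.4 CPM in those libraries and to 118 and 92.3 CPM in the other A18w libraries, and their part was not tested. Of the other basement membrane genes 1 of 17 fell, beside 0.0313% of all genes, namely Nid1 (log2 fold change -1.18 ± 0.16, edgeR adjusted p = 0.0121). Col25a1 stayed near its A6w level at 49.2, 47.5, 50.2 and 50.2 CPM (log2 fold change 0.03 ± 0.18, edgeR adjusted p = 0.993).

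No collagen gene was called between libraries labelled Mcph1KO and WT. With edgeR, 0 of 44 were called averaged over stages (0.0521% of all genes, 10 genes, with 0.0417% higher and 0.0104% lower), and 0 at each single stage, where 0% of all genes were called, or for a difference of the genotype effect between stages (0%). At an unadjusted p under 0.05 the counts were 1 averaged, 1 at E17.5, 2 at P4, 4 at A6w, 7 at A18w and 6 for genotype by stage, beside 2.21%, 1.58%, 3.74%, 3.97%, 1.7% and 2.27% of all genes. DESeq2 also called 0 except 1 gene for genotype by stage, Col9a3 (its share over all genes is not given here). Without the filter on low counts edgeR called 3 at P4 (Col1a1, Col1a2 and Col3a1), 1 at A6w (Col2a1) and 5 for genotype by stage, beside 0.663%, 0.772% and 1.37% of the 33930 genes in that fit. Only Col20a1, Col23a1 and Col9a1 had a fold change of the same sign at all 4 stages, higher in each, beside 9.63% of all genes. The median log2 fold change over the 44 genes was 0.28 at E17.5, -0.11 at P4, 0.16 at A6w and 0.17 at A18w, beside 0, 0, 0 and -0.01 for all genes.

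**Figure D4:**
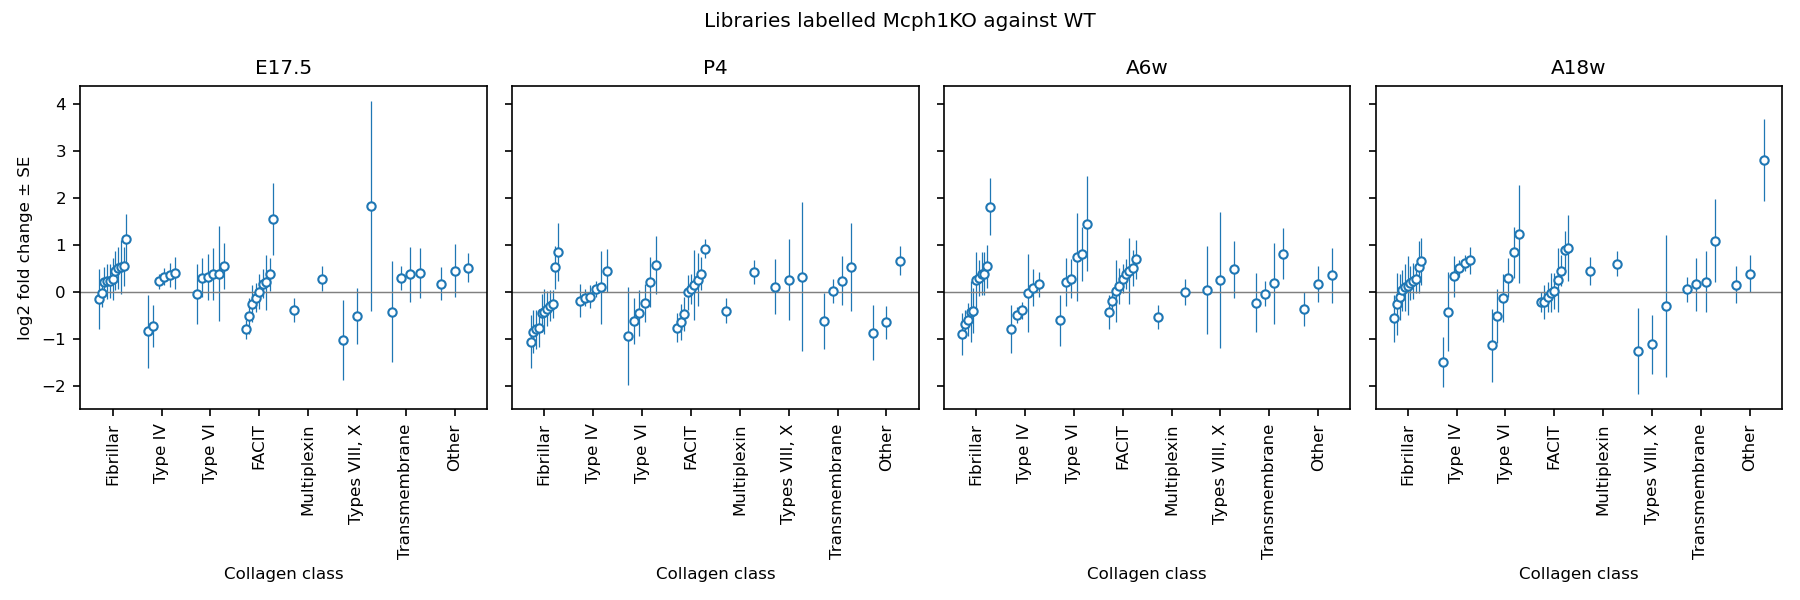
Log2 fold change with its standard error (vertical axis) of libraries labelled Mcph1KO against WT for each collagen gene by class (horizontal axis) at the 4 cortex stages, 2 libraries against 2. All points are open because none passed an adjusted p under 0.05. The fibrillar genes lie mostly above 0 at E17.5 and below 0 at P4.

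The size of the genotype differences can be read from the genes of highest level, some of which are named here after their values were seen. At P4 the fibrillar genes summed to 497 and 476 CPM in WT and 291 and 282 CPM in the libraries labelled Mcph1KO. Col1a1 alone was at 122 and 116 CPM against 52.3 and 61.4 CPM (log2 fold change -1.06 ± 0.57, edgeR adjusted p = 1). Meningeal markers in the same libraries summed to 248 and 291 CPM in WT against 176 and 145 CPM, endothelial markers to 312 and 347 CPM against 227 and 285 CPM, and pericyte markers to 323 and 355 CPM against 233 and 244 CPM. At E17.5 the direction was the other way through 1 library. The fibrillar sum was 433 and 476 CPM in WT and 448 and 806 CPM in the libraries labelled Mcph1KO, and the library at 806 CPM also had the highest meningeal sum (316 CPM) and the lowest cortical neuron sum (1320 CPM) of its stage. The part of these cell types was not tested. The libraries of the 2 labels did not overlap for 13 collagen genes higher and 6 lower at E17.5 (9.83% and 10.3% of all genes), 5 and 10 at P4 (15% and 14.6%), 6 and 12 at A6w (16.7% and 15.4%) and 12 and 2 at A18w (10.4% and 12.4%).

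Col9a3 had the smallest unadjusted p of the collagen genes for genotype by stage (0.000557, edgeR adjusted p = 1). It stood at 28.9 and 27.9 CPM in WT against 12.9 and 19.6 CPM at E17.5, and at 15.2 and 14.1 CPM against 29.6 and 25.7 CPM at P4, without overlap in either and in opposite directions. Choroid plexus markers in these 4 groups summed to 718 and 974 CPM, 6.25 and 460 CPM, 322 and 5.87 CPM, and 88.3 and 778 CPM. Col8a2, a chain of the type VIII network, was at 10.3, 14.1, 1.83 and 10.2 CPM at E17.5, lowest in the library with 6.25 CPM of choroid plexus markers. At A18w it was at 0.658, 6.07, 0.560 and 2.26 CPM, highest in the library with 699 CPM of those markers. At A6w it was at 0.934, 1.82, 1.68 and 1.15 CPM, and highest in the library with the lowest choroid plexus sum (5.89 CPM). At P4 it was at 5.05, 3.84, 4.25 and 6.43 CPM, highest in the library with 778 CPM of those markers and lowest in that with 5.87 CPM. The part of choroid plexus in these values was not tested. Col4a1 and Col4a2 lie on chromosome 8, the chromosome of Mcph1, whose start is 7.15 Mb from the end of Col4a2. Col4a2 was at log2 fold changes of 0.22 ± 0.17, 0.06 ± 0.17, -0.50 ± 0.17 and 0.62 ± 0.17 at E17.5, P4, A6w and A18w (edgeR adjusted p = 1 at each).

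Against E17.5 WT cortex, the embryonic stem cells had low RNA of most collagen genes and high RNA of a few. In a fit of the 10 WT libraries, 37 of the 43 collagen genes tested were called, 32 lower and 5 higher in stem cells, beside 68% of all 19466 genes tested (35.3% lower and 32.7% higher). Col10a1 was under the filter, with 3 and 1 counts in the stem cells and 1 and 0 in E17.5 WT. The median log2 fold change was -3.75, beside -0.06 for all genes, and it was also -3.75 with the 3 genes that had no count in stem cells set at their bounds. Values below are for stem cell replicates 1 and 2 and then E17.5 WT replicates 1 and 2, in CPM of this fit.

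Col18a1 was the collagen gene with the highest level in stem cells, at 335 and 162 CPM against 51.8 and 37.9 CPM. The groups did not overlap, although the stem cell libraries differed from each other (log2 fold change 2.47 ± 0.39, edgeR adjusted p = 0.000257). Col17a1, a transmembrane collagen of hemidesmosomes, stood at 2.12 and 1.06 CPM against 0.142 and 0.0681 CPM (log2 fold change 3.84 ± 0.81, edgeR adjusted p = 0.00167). The type VI chains Col6a4 (3.76 and 3.70 CPM against 0.426 and 0.919 CPM) and Col6a5 (2.61 and 3.42 CPM against 0.709 and 0.578 CPM) were higher, at log2 fold changes of 2.47 ± 0.59 (edgeR adjusted p = 0.00346) and 2.22 ± 0.58 (adjusted p = 0.00603). In the same class Col6a1 and Col6a3 were nearly absent from stem cells. Col5a3 was at 9.06 and 1.67 CPM against 0.341 and 1.53 CPM (log2 fold change 2.53 ± 0.84, edgeR adjusted p = 0.0204), and its call was lost without stem cell replicate 1 (0.83, adjusted p = 0.395) or E17.5 WT replicate 1 (1.80, adjusted p = 0.122).

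The fibrillar genes of connective tissue were far lower in stem cells than in cortex. Col3a1 had 0 and 4 counts in stem cells, or 0 and 0.163 CPM, against 135 and 126 CPM (log2 fold change -10.52 ± 0.85, edgeR adjusted p = 2.02e-06). Col1a2 was at 0.929 and 0.366 CPM against 95.4 and 120 CPM (log2 fold change -7.38 ± 0.70, edgeR adjusted p = 6.19e-06), and Col1a1 at 2.96 and 1.59 CPM against 63.3 and 91.0 CPM (-5.09 ± 0.72, adjusted p = 0.000111). Among the fibrillar genes called lower, Col5a1 had the smallest fold change, at 19.9 and 8.87 CPM against 31.2 and 31.4 CPM (log2 fold change -1.12 ± 0.37, edgeR adjusted p = 0.0204). All 6 type IV genes were lower in stem cells. Col4a1 was at 98.5 and 16.5 CPM against 298 and 234 CPM (log2 fold change -2.21 ± 0.60, edgeR adjusted p = 0.00744), and Col4a2 at 35.5 and 7.32 CPM against 191 and 148 CPM (-2.99 ± 0.55, adjusted p = 0.000667).

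For genes with almost no stem cell counts the size is given from the counts of the 2 libraries together. Col6a1 had 2 counts, and E17.5 WT was 513-fold higher (95% exact interval 142 to 4240, counting error only). Col6a3 had 3 counts and E17.5 WT was 411-fold higher (140 to 2000), and Col4a6 had 1 count and E17.5 WT was 422-fold higher (75.5 to 16700). With no count in stem cells and a floor of 3 counts over the group, E17.5 WT was at least 33.8-fold higher for Col19a1, at least 16.8-fold for Col4a3 and at least 17.8-fold for Col28a1. Col25a1 was at 0.0884 and 0.285 CPM against 10.6 and 11.1 CPM (log2 fold change -5.80 ± 0.43, edgeR adjusted p = 1.03e-06).

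**Figure D5:**
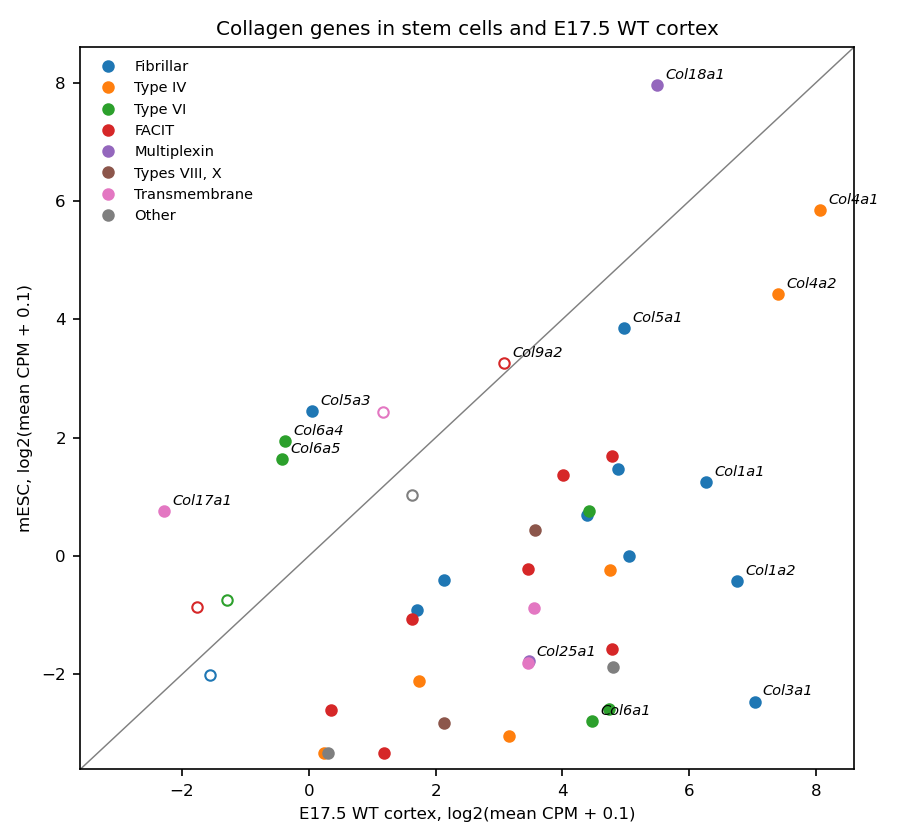
Mean CPM of each tested collagen gene in the 2 stem cell libraries (vertical axis) against the 2 E17.5 WT libraries (horizontal axis), both as log2 of CPM plus 0.1, coloured by class. Filled points passed an adjusted p under 0.05 and the line marks equal levels. Col18a1 lies far above the line, and most genes, such as Col3a1 and Col1a2, lie far below it.

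Of the lists of other matrix genes in stem cells, each is given beside 68% of all genes called (32.7% higher and 35.3% lower). Of 19 genes for folding and modification 8 were higher and 5 lower (median log2 fold change 0.40), with Plod2 at 91.5 and 84.2 CPM against 12.7 and 13.6 CPM (log2 fold change 2.74 ± 0.30, edgeR adjusted p = 1.89e-05). Of 17 basement membrane genes 7 were higher and 5 lower, with the laminin chain Lama5 at 116 and 140 CPM against 13.3 and 13.4 CPM (log2 fold change 3.26 ± 0.29, edgeR adjusted p = 3.69e-06). Of 13 processing genes 4 were higher and 8 lower, of 9 receptors 1 and 7, and of 10 breakdown genes 1 and 8. Meningeal fibroblast markers summed to 40.1 and 23.2 CPM in stem cells against 148 and 235 CPM, with 4 of 12 at 0 in both stem cell libraries.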

How the data were processed

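The authors deposited estimated counts per gene for 18 libraries of mouse RNA. Per the submitters' processing notes, the tools included FastQC, Trimmomatic 0.39 and Salmon 1.4.0, with the genome build GRCm38.p6. Such estimated counts share reads between similar transcripts, and whether strand was used is not given in the sources used here. Gene IDs were matched without their version to GENCODE M21 names, with 54107 of 54281 matched, 53544 of them at the same version and 174 unmatched. The collagen genes and all gene lists were chosen with earlier results of these data known.

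The deposited counts were whole numbers, how they were rounded is not given in the sources used here, and they were tested as they stand with edgeR 4.0.16 in R 4.3.3 (limma 3.58.1 installed): TMM scaling, genes kept by a minimum count of 10 in enough libraries and a minimum total of 15, 1 mean per group, and quasi-likelihood tests with p-values adjusted by Benjamini-Hochberg across the whole table. The 16 cortex libraries were fitted together (19199 genes, all 44 collagen genes), and the 10 WT libraries apart for the stem cell comparison (19466 genes, 43 collagen genes). Spread was thus pooled over groups of 2. A call is an adjusted p under 0.05. Totals of 23531045 to 32041849 counts per library limit the precision of genes with few counts, and intervals on counts cover counting error only.

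Any collagen gene could be named, with values per library for up to 4 members of highest level per class and the 5 largest rises and falls called in each comparison. Of every other list, genes were named from the up to 4 called members of smallest adjusted p. The lists named in the text cover collagen classes, folding and modification, processing and cross-linking, receptors, basement membrane partners, breakdown, and markers of stem cells, cortical neurons, meningeal fibroblasts, pericytes, endothelium, choroid plexus, cartilage, bone, thalamus and hypothalamus, hippocampus, striatum and red blood cells. Alternatives were other size factors, no filter, all 18 libraries in 1 fit, DESeq2 1.42.0, a replicate block, fits within a genotype label and libraries left out. The fits were tested on simulated data with known changes.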

Additional observations from a re-analysis of the deposited data

How the results depend on the processing

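The counts of collagen genes called from E17.5 to P4, from P4 to A6w and between stem cells and E17.5 WT kept to within 1.5 times of 10, 32 and 37 with other size factors, no filter, 1 fit of all libraries and DESeq2. The exception was the count of 6 from E17.5 to P4 within WT. Leaving out 1 library at a time gave 7 to 10, 28 to 33 and 35 to 36 calls. These counts are not set beside the share of all genes called in each fit, so they have no baseline.

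The count of 2 from A6w to A18w moved most. It was 11 without the filter on low counts (1.76% of all genes in that fit), 6 with DESeq2 (1.22%), 0 in a fit of all 18 libraries, 0 within the libraries labelled Mcph1KO, and 0 to 5 with 1 library left out. It was also 0 in the checks chosen after the data were seen, without both A18w libraries numbered 1 and without these and A6w WT replicate 1. For genotype, no filter gave 3 calls at P4, 1 at A6w and 5 for genotype by stage, DESeq2 gave 1 for genotype by stage, and leaving out 1 library gave 0 to 0 in each. The cause was not tested. Single genes were followed for the up to 5 largest rises and falls called in each comparison, 19 genes in all. Of their 412 values under alternatives, 363 kept their call, 49 lost it and 0 changed direction. Because they were picked by fold change in these same libraries, a change of direction was unlikely from the start, and no conclusion is drawn from its absence.

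With the replicate number as a block the counts were 10, 32, 3 and 37 for the stage steps and stem cells, and 0 for genotype. The shares of all genes called in these fits are not given here. The labels do not say that a shared number marks a pairing. Deviations of same-numbered libraries correlated at 0.478, 0.209, 0.0829 and 0.295 across the genotype labels at E17.5, P4, A6w and A18w. Between groups of different stages the same correlation ran from -0.108 to 0.231, so E17.5 and A18w lay above that range and P4 and A6w within it. Whether same-numbered libraries shared handling was not settled, and the block was kept as an alternative. Each group held 2 libraries, and genes of few counts, such as Col10a1 with 74 counts in all, could not show small differences at this depth.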

Other observations

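The ratio of the chains of a heterotrimer was looked at after the data were seen, in counts per library. Col4a1 to Col4a2 was 1.56 to 1.71 over the E17.5 libraries, 1.33 to 1.57 at P4, 1.09 to 1.32 at A6w and 1.06 to 1.21 at A18w, and 2.25 and 2.78 in the stem cell libraries. From P4 to A6w the log2 ratio differed by -0.34 (4 libraries against 4, two-sided exact permutation p = 0.0286, the smallest possible, and 0.129 after Benjamini-Hochberg adjustment over 9 tests). Col6a1 to Col6a2 was 0.985 to 1.07 at E17.5, 0.958 to 1.41 at P4, 1.59 to 2.95 at A6w and 1.32 to 3.21 at A18w. From P4 to A6w the log2 ratio differed by 0.79 (two-sided exact permutation p = 0.0286, adjusted p = 0.129). No ratio passed the adjustment. With 4 libraries against 4, it can be passed only if most of the 9 tests reach the smallest possible p. No conclusion is therefore drawn from its not being passed.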
